A study of Mus musculus with 6 samples.

Results

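Hsph1, Dnajb4 and Fkbp5 are 3 chaperone genes of mouse pancreatic islets, and they are 3 of the 54 gene rows in the table analysed here. Hsph1 encodes an HSP110-class chaperone, Dnajb4 an Hsp40-class co-chaperone, and Fkbp5 the Hsp90 co-chaperone FKBP51. The 3 genes were chosen from their rows in a list whose picking rule is not stated in the sources used here. In the authors' deposited table the p-values of the difference between diets were 0.0023 for Hsph1, 0.0040 for Fkbp5 and 0.0072 for Dnajb4. All 54 rows lay below 0.01. The rows are therefore taken below as picked on that difference, and the diet values are a description with no test. The authors' test is not named in the sources used here.

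Islets, the endocrine clusters that hold the insulin-secreting beta cells, were isolated from C57BL/6 mice. One group was fed high-fat food (high-fat diet, 3 libraries) and the other normal food (control diet, 3 libraries). The labels give 22 weeks of feeding and the series design gives 27, for both diets alike. The labels used here give neither sex nor age, and do not say whether a library came from 1 mouse or a pool, nor that replicates are separate animals. The spread between replicates may therefore be partly technical. Every level is in FPKM, which scales fragment counts by transcript length and library size, so levels of different genes can be set side by side. Read totals are not given, so depth is unknown and no counting interval can be attached. None of the 43 markers listed for 10 islet, exocrine, vascular, immune and stromal cell types is among the 54 rows, so the labelled tissue could not be checked against them.

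Chaperones of the Hsp70 system bind unfolded stretches of proteins in cycles driven by ATP. Hsp40 proteins deliver clients and speed up ATP hydrolysis by Hsp70, and HSP110 proteins release the bound ADP so that the next cycle can start. The heat shock factor HSF1 switches on many of these genes through heat shock elements, short alternating repeats in their promoters. FKBP51 acts in the other large system: it binds Hsp90, lowers the hormone affinity of the glucocorticoid receptor, and is itself strongly induced by glucocorticoids. Beta cells make proinsulin in large amounts and place a high load on protein folding, although that load falls mostly on the endoplasmic reticulum rather than on the cytosol, where these 3 proteins chiefly work.

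The start-site sequences are shown because letters of a heat shock element were found near annotated starts of Hsph1 and Dnajb4. For Dnajb4 this held at 1 of its 2 starts, and for Fkbp5 there was no match. The RefSeq promoter windows (GRCm38.p6) run from 250 bases before to 50 bases after an annotated start, and both Hsph1 and Dnajb4 have 2 of them, against 1 for Fkbp5. All 3 genes lie on the minus strand, on chromosomes 5, 3 and 17, and positions are counted from the start site with -1 as the base before it. In the stretches of Hsph1 and Dnajb4, capitals mark TTCNNGAA or GAANNTTC, which are both their own reverse complements and stand for 2 units of a heat shock element. In the stretch of Fkbp5, capitals mark CACGTG, an E-box that is also its own reverse complement.
Hsph1, first window, bases -60 to -1, chr5:149636337-149636396: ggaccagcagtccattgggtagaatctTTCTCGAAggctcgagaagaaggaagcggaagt
Hsph1, first window, bases 27 to 50, chr5:149636287-149636310: atgctgcagaTTCTGGAAAGTTCt
Dnajb4, second window, bases -60 to -1, chr3:152193846-152193905: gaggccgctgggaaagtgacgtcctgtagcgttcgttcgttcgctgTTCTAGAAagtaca
Fkbp5, bases -196 to -137, chr17:28486286-28486345: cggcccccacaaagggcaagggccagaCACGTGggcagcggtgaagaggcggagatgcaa

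In its first window, Hsph1 had TTCNNGAA from base -33 and again from base 37, where it overlaps GAANNTTC from base 42 to form an element of 3 alternating units. The start of its second window lies 21 bases farther downstream, so that window holds the same matches. Such 3-unit elements were found in 0.603% of all 32851 windows of that length. Dnajb4 had TTCNNGAA from base -14 of its second window and none of the motifs in its first window. The first window, bases 152210034 to 152210333, holds the annotated beginning of the gene at 152210302. The second window, bases 152193796 to 152194095, lies farther inside the gene. TTCNNGAA alone was in 8.52% of all windows, GAANNTTC in 7.86%, and either of them in 15.1%. Counted by gene, either of them was in 17.0% of 27025 genes. Fkbp5 had neither TTCNNGAA nor GAANNTTC. CACGTG, which was in 7.15% of all windows, stood at base -169 of Fkbp5 and at base 3 of Hsph1. CCAAT or its reverse complement, present in 37.4% of windows, was found in Hsph1 and Fkbp5. ACANNNTGT, a loose form of the site bound by the glucocorticoid receptor, was in 6.85% of all windows and in none of the 5 windows of the 3 genes. A match is a string of letters and not a measured binding site, and the absence of one says only that these letters are not in this window. The window of Fkbp5 covers bases 28486100 to 28486399. The annotated gene, on the minus strand, begins at 28517527, and that start was not searched. CACGTG and CCAAT were added to the search after the sequences had been seen.

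In the deposited scaling all 3 genes had higher FPKM in every high-fat library than in any control library, whereas quantile normalization over the 54 rows turned Hsph1 to -0.072 and Dnajb4 to -0.006 on the log2 scale. The ratio of mean FPKM was 2.098 for Fkbp5, 1.84 for Hsph1 and 1.58 for Dnajb4. Of the 54 rows, 61.1% showed the same separation with the high-fat diet higher, and since the rows were picked on this contrast nothing is read from the members' 3 of 3. On the log2 scale the 3 ratios were 1.07, 0.88 and 0.66, against a median of 0.81 over the 54 rows. In the deposited scaling the order of the ratios is not the order of the levels, nor of how well the diets were separated.

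Hsph1 was the most abundant of the 54 rows by its mean over the 6 libraries. Its level was 46.8, 40.7 and 41.7 FPKM in the high-fat libraries, against 21.4, 24.2 and 24.6 FPKM in the control libraries. The replicates of each diet lay close together, and the lowest high-fat library was 1.65 times the highest control library. The means were 43.1 ± 3.29 FPKM on the high-fat diet and 23.4 ± 1.73 FPKM on the control diet (SD, n = 3 each). The coefficient of variation, the SD as a share of the mean, was 7.64% on the high-fat diet and 7.39% on the control diet. In the deposited scaling the control value was the lowest of the 54 rows, whose median was 33.5%. After division by the library median over the 54 rows it was 37.7%, which ranked 46 of 54 from the lowest, against a median of 17.4%.

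Dnajb4 was a low-level transcript, ranked 29 of 54 by its mean of 0.775 FPKM over the 6 libraries. Its level was 0.837, 1.04 and 0.971 FPKM in the high-fat libraries, against 0.547, 0.617 and 0.641 FPKM in the control libraries. The diets did not overlap, and the lowest high-fat library was 1.31 times the highest control library. The means were 0.949 ± 0.102 FPKM on the high-fat diet and 0.601 ± 0.0489 FPKM on the control diet (SD, n = 3 each). Its control coefficient of variation of 8.14% was the second lowest of the 54 rows in the deposited scaling, after that of Hsph1, and it was 37.8% after division by the library median. Among the 3 genes, Dnajb4 had the smallest diet ratio and ranked 34 of 54 by the signed log2 ratio.

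Fkbp5 had 13.6, 11.3 and 14.8 FPKM in the high-fat libraries, against 9.85, 3.67 and 5.39 FPKM in the control libraries. The control libraries were widely spread, with the highest at 2.69 times the lowest, and control replicate 1 came near the high-fat range. The lowest high-fat library was 1.15 times the highest control library, the narrowest gap of the 3 genes, although the ratio of means was the widest. The means were 13.2 ± 1.77 FPKM on the high-fat diet and 6.30 ± 3.19 FPKM on the control diet (SD, n = 3 each). The coefficient of variation was 13.4% on the high-fat diet and 50.6% on the control diet, which was 14.9% after division by the library median. Without control replicate 1 the log2 ratio was 1.55, and without control replicate 2 it was 0.80.

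**Figure D1:**
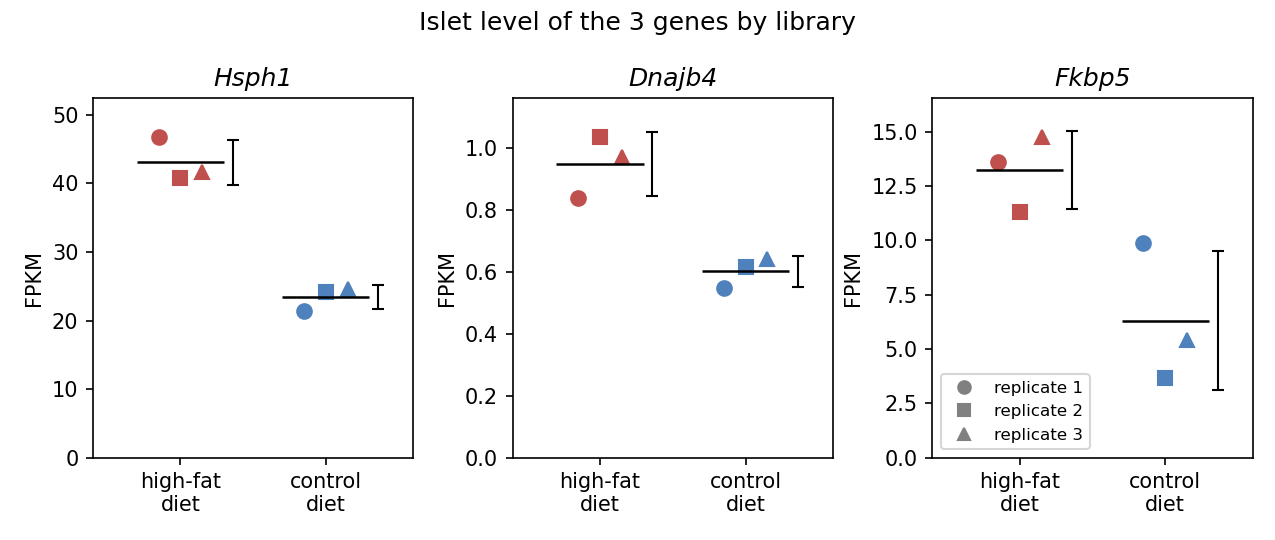
FPKM (y axis, from 0, a separate scale for each gene) of Hsph1, Dnajb4 and Fkbp5 in the 3 high-fat and 3 control libraries; symbols give the replicate, lines the mean and brackets the SD (n = 3). In the deposited scaling the diets are well apart for Hsph1 and Dnajb4, which overlap after division by the library median, while Fkbp5 control replicate 1, at 9.85 FPKM, lies close under the lowest high-fat library, at 11.3 FPKM.

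The effect size in the authors' deposited table, which is the difference of means over the pooled SD, put the genes in another order than the ratio of means. It was 7.48 for Hsph1, 4.34 for Dnajb4 and 2.68 for Fkbp5, and ranked them 2, 12 and 37 among the 54 rows by size. In the deposited scaling Fkbp5, with the largest ratio of the 3, thus had the smallest difference relative to its spread. After division by the library median, the diets stayed apart for Fkbp5 and overlapped for Hsph1 and Dnajb4. In that scaling 38.9% of the 54 rows were separated with the high-fat diet higher.

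**Figure D2:**
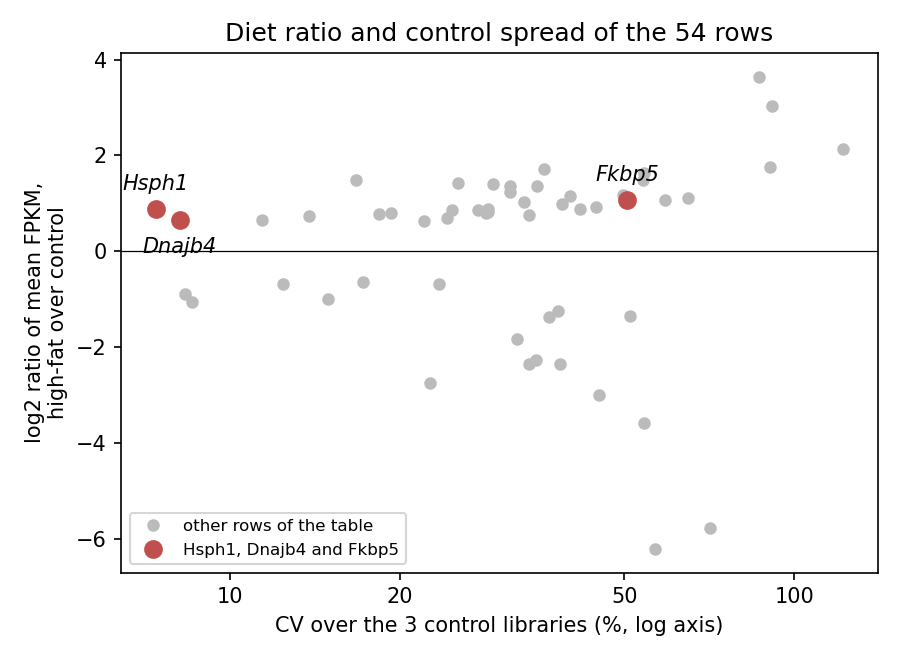
Log2 ratio of mean FPKM, high-fat over control (y axis), against the coefficient of variation over the 3 control libraries (x axis, log scale) for the 54 rows; red points are the 3 genes. In the deposited scaling Hsph1 and Dnajb4 lie at the left edge, at 7.39% and 8.14%, and Fkbp5 lies to the right at 50.6%.

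Hsph1 and Dnajb4 also shared the order of their control libraries. Both were lowest in control replicate 1, at 0.916 and 0.909 of their own control mean, and both were highest in control replicate 3. This order was not particular to them: 4 of the 36 rows higher on the high-fat diet had it, Hsph1 and Dnajb4 included. Control replicate 1 was the lowest control in 7 of the 54 rows and the highest in 46. The other 5 rows lowest there were Cdkn1a, an inhibitor of cyclin-dependent kinases, Defb1, a beta-defensin, Gabrr2 and Kcng2, which encode channel subunits, and the small nucleolar RNA Snord73a. Of these 5, Defb1 and Snord73a had the full control order of Hsph1 and Dnajb4, with Snord73a at 0.0 FPKM in control replicate 1. Fkbp5 followed the majority of rows: control replicate 1 stood at 1.56 times its control mean and control replicate 2 at 0.582 times.

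The library levels over the table moved with that order. The median over the 54 rows was 1.27, 0.982 and 1.304 FPKM in the high-fat libraries, against 1.09, 0.548 and 0.642 FPKM in the control libraries. Control replicate 1 therefore stood above the other controls in its median, as Fkbp5 did and as Hsph1 and Dnajb4 did not. These medians are over rows picked for their diet difference and are not a measure of depth. The part of such a library-wide shift in the levels of Fkbp5 was not tested.

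A ratio of 2 genes within a library is unchanged when the whole library is multiplied by 1 factor, but quantile normalization can change it. In the high-fat libraries the level of Dnajb4 was 1.79%, 2.55% and 2.33% of that of Hsph1, against 2.550%, 2.551% and 2.60% in the control libraries. The control libraries were almost identical in this ratio. High-fat replicate 2, at 2.546%, was almost level with the lowest control, at 2.550%. High-fat replicates 1 and 3 lay below, with replicate 1 farthest away. Among the 1326 pairs of rows with no 0 in the control libraries, this pair had the smallest SD of the log2 ratio, at 0.0162 against a median of 0.373. In the high-fat libraries its SD was 0.266, close to the median of 0.246 over 1081 pairs, and 574 pairs were as low or lower. The pair was set out in this way after its values had been seen. In the deposited scaling the 2 genes have the 2 lowest control coefficients of variation, so a small SD of their ratio is partly built in. The log2 difference of the ratio between diets was -0.22, and it was -0.08 without high-fat replicate 1.

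The level of Fkbp5 was 29.1%, 27.7% and 35.4% of that of Hsph1 in the high-fat libraries, against 45.95%, 15.2% and 21.9% in the control libraries. The control range enclosed the whole high-fat range. The mean log2 ratio differed between diets by 0.30, with an SD of 0.189 on the high-fat diet and 0.814 on the control diet. The difference was 0.75 without control replicate 1 and -0.053 without control replicate 2. Relative to Dnajb4, Fkbp5 was 16.3, 10.9 and 15.2 times as high in the high-fat libraries, against 18.0, 5.95 and 8.41 times in the control libraries. These ranges overlapped as well, and the mean log2 ratio differed by 0.98 without control replicate 1 and by 0.18 without control replicate 2. In both ratios only control replicate 1 lay above the lowest high-fat library. With every control library included, the wider diet ratio of Fkbp5 in the means thus did not set it apart from either of the other 2 genes within libraries.

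**Figure D3:**
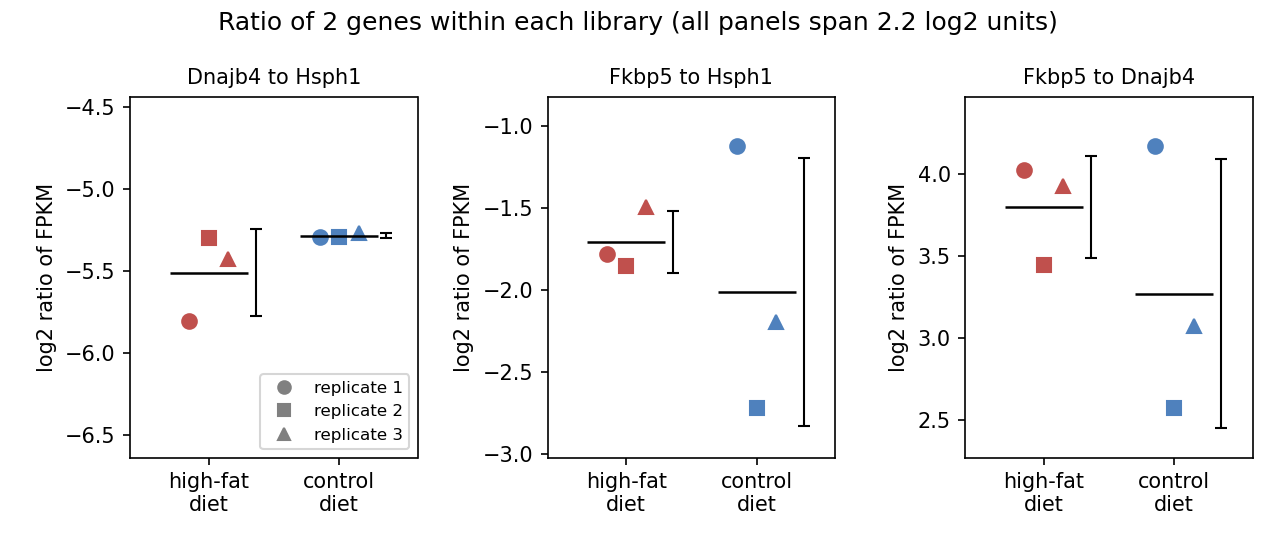
Log2 ratio of FPKM between 2 genes within each library (y axis, every panel spanning 2.2 log2 units) for the 3 high-fat and 3 control libraries, with the mean (line) and SD (bracket, n = 3). The Dnajb4 to Hsph1 ratio is nearly constant over the control libraries (SD 0.0162), whereas both ratios with Fkbp5 spread widely there.

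The rows most like each gene were found by the root mean square difference of log2(FPKM + 0.1) over the 6 libraries, each gene centred on its own mean, among the 26 rows with a mean of at least 1 FPKM. Since the rows were picked on the diet difference, some likeness is built in. Near to Hsph1 were Irf2bp2, a transcriptional co-repressor gene (0.234), and Mapkapk3, a kinase gene (0.267), against a median of 0.389. Dnajb4, which lay below the 1 FPKM limit, was at 0.208 from Hsph1. For Dnajb4 the nearest row was Hsph1, and Irf2bp2 was at 0.265, against a median of 0.486. Irf2bp2 had 8.71, 8.07 and 9.54 FPKM in the high-fat libraries, against 6.17, 4.54 and 4.44 FPKM in the control libraries. Its control replicate 1 was the highest of the controls, where that of Hsph1 and Dnajb4 was the lowest.

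Fkbp5 lay at 0.497 from Hsph1 and at 0.570 from Dnajb4, farther than the medians over all other rows, which were 0.444 from Fkbp5, 0.421 from Hsph1 and 0.520 from Dnajb4. Its nearest row was Kl, which encodes the FGF co-receptor Klotho, at 0.093. Kl had 1.84, 1.48 and 2.38 FPKM in the high-fat libraries, against 1.49, 0.461 and 0.750 FPKM in the control libraries. The diets thus overlapped slightly for Kl itself. The level of Fkbp5 was 7.40, 7.60 and 6.20 times that of Kl in the high-fat libraries, against 6.60, 7.96 and 7.18 times in the control libraries, so the 2 diets overlapped in this ratio. Next came Pcyox1l, a gene of the prenylcysteine oxidase family, at 0.146, and Tbc1d4, which encodes a Rab GTPase-activating protein of insulin-regulated glucose transport, at 0.187. Pcyox1l had 2.104, 1.78 and 2.59 FPKM in the high-fat libraries, against 1.69, 0.708 and 0.996 FPKM in the control libraries, with the same high control replicate 1. Most of the table shared these traits. Of the 36 rows higher on the high-fat diet, 30 had control replicate 1 as the highest control. High-fat replicate 2 was the lowest high-fat library in 30 of the 36.

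**Figure D4:**
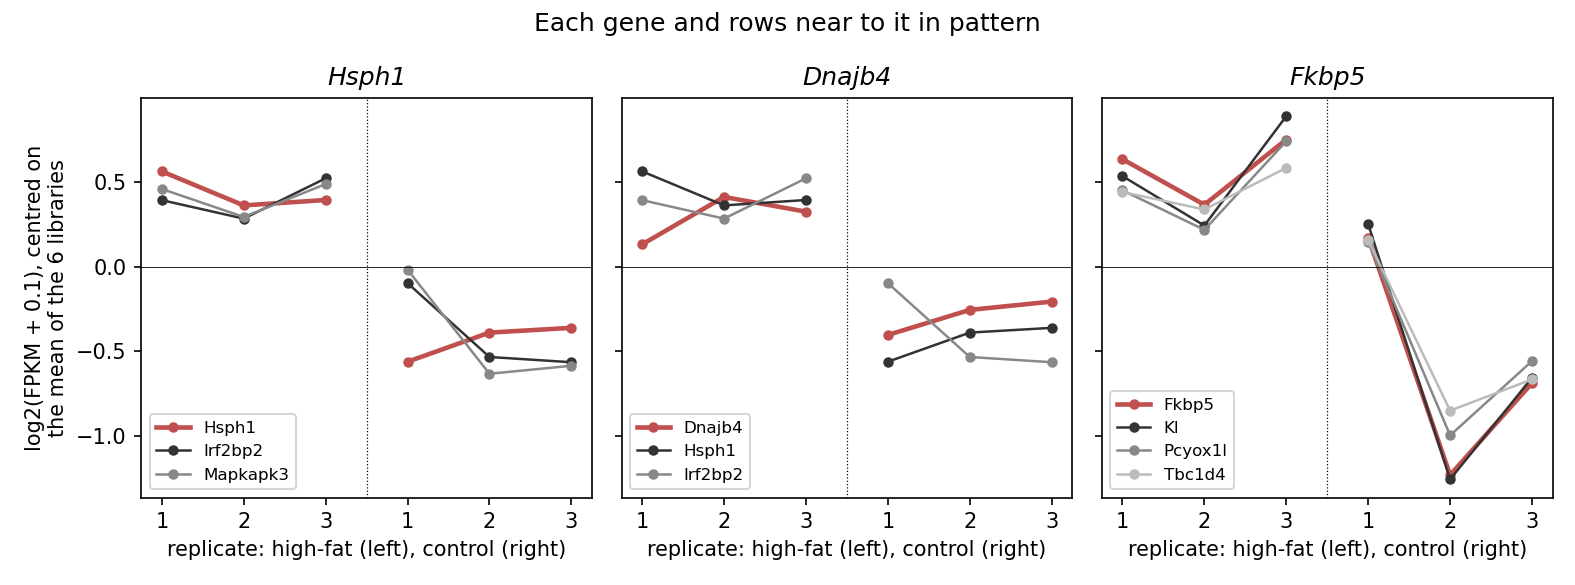
Log2(FPKM + 0.1) centred on each gene's mean over the 6 libraries (y axis) by library (x axis, high-fat replicates left, control replicates right) for each gene (red) and rows near to it (grey); lines only join the points of 1 gene. Fkbp5 and Kl nearly coincide (difference 0.093), and Hsph1 differs from the rows drawn beside it most at control replicate 1.

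Of the 24 genes listed for the cytosolic heat shock response, Hsph1 and Dnajb4 were among the 54 rows, and the other 22 were not analysed here. Fkbp5 was the single one of 14 Hsp90 co-chaperones. None of the 14 listed chaperones and stress genes of the endoplasmic reticulum was among the rows, and nothing can be said of their levels. Of the 21 glucocorticoid-induced genes, Fkbp5 and Cdkn1a were among the rows. Cdkn1a had 7.22, 6.78 and 4.48 FPKM in the high-fat libraries, against 1.54, 2.96 and 2.65 FPKM in the control libraries. Its diets did not overlap, but control replicate 1 was its lowest library where it was the highest control of Fkbp5. The table thus shows single genes of each system and no system as a whole.

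The direction of the diet ratio held under every pseudocount, group summary and left-out library tried, and it depended on scaling for 2 of the 3 genes. Divided by the library median over the 54 rows, the log2 ratio was 0.11 for Hsph1, -0.092 for Dnajb4 and 0.48 for Fkbp5. Under quantile normalization over the same rows it was -0.072 for Hsph1, -0.006 for Dnajb4 and 0.55 for Fkbp5. The first scaling moved the median log2 ratio of all rows to 0.12, against 0.81 as deposited. Relative to the median as deposited, the log2 ratio was 0.07 for Hsph1, -0.15 for Dnajb4 and 0.26 for Fkbp5. Scaled by the median, Fkbp5 still had no overlap between diets, at 10.7, 11.5 and 11.3 times the median in the high-fat libraries, against 9.001, 6.70 and 8.39 times in the control libraries. Over all rows, 38.9% were separated in this direction after that scaling, so 1 of 3 members is near the share of the table. Hsph1 then stood at 36.9, 41.5 and 32.0 times the median in the high-fat libraries, against 19.6, 44.1 and 38.4 times in the control libraries. Dnajb4 stood at 0.660, 1.06 and 0.745 times the median in the high-fat libraries, against 0.499, 1.13 and 0.998 times in the control libraries. Both genes overlapped between diets, with control replicate 1 far below the other controls. Both scalings rest on rows taken as picked for a difference, 36 of 54 of them higher on the high-fat diet. Whether they take out a diet difference that most rows share or a library-wide shift was not tested. Under quantile normalization alone, Hsph1, at rank 1 to 3 in every library, has little room to move by rank.

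**Figure D5:**
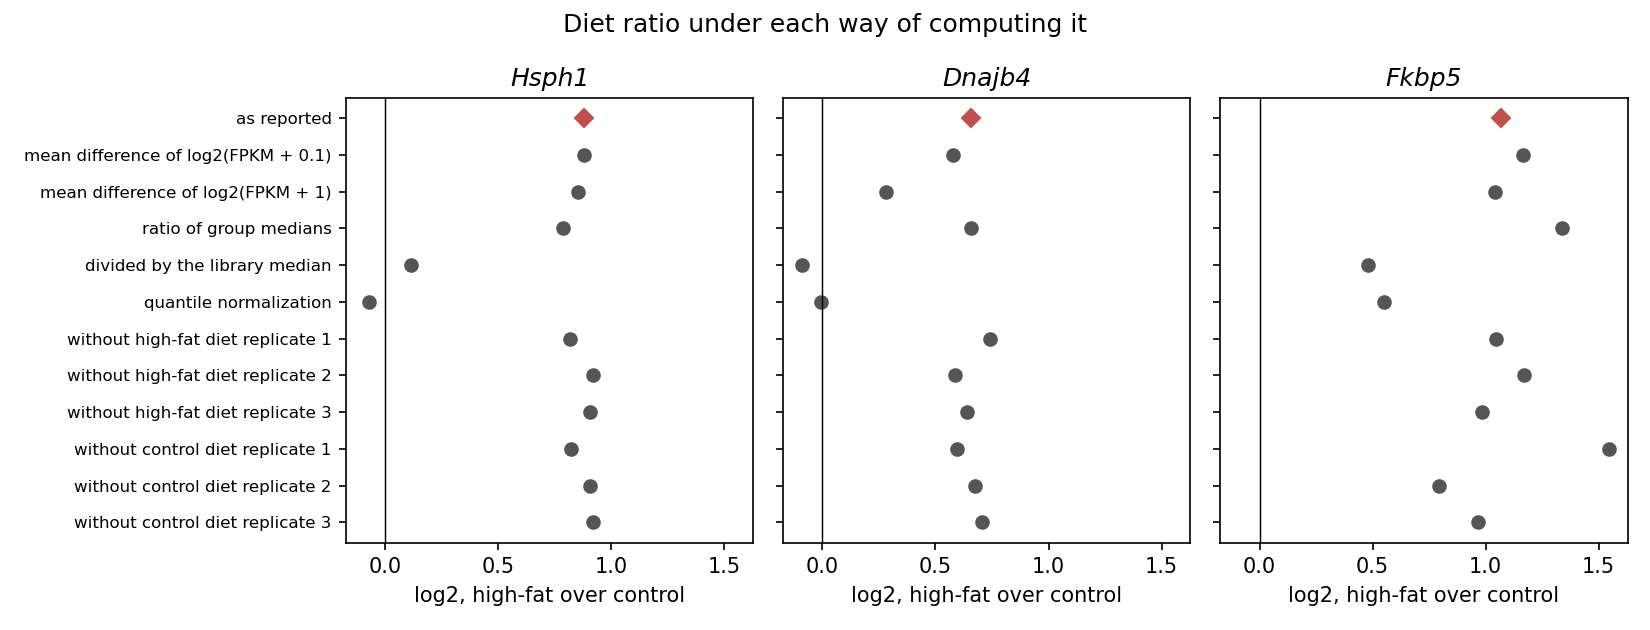
Log2 ratio of the diets, high-fat over control (x axis), for each gene under each way of computing it (y axis); the diamond is the log2 ratio of mean FPKM and the vertical line marks 0. Under the 2 scalings by the picked rows, Hsph1 and Dnajb4 come to lie near 0 and Fkbp5 at 0.48 and 0.55. With a pseudocount of 1, Dnajb4 lies at 0.28. Fkbp5 lies at 1.55 without control replicate 1, at 1.34 by group medians and at 0.80 without control replicate 2. Other values stay nearer the diamond.

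On GRCm38 (GENCODE M21), Hsph1 (ENSMUSG00000029657) spans chromosome 5 from 149614287 to 149636376, Dnajb4 (ENSMUSG00000028035) chromosome 3 from 152178511 to 152210302, and Fkbp5 (ENSMUSG00000024222) chromosome 17 from 28399094 to 28517527. The 3 genes are protein-coding, with 11, 7 and 15 annotated transcripts, and the values are per gene, so the start site in use cannot be read from them. No exon base of the 3 genes is shared with another annotated gene. Within the span of Fkbp5, 4 further genes are annotated, all without shared exon bases. No transcript of another gene matched the longest transcript of any of the 3 at 95% identity over 100 bases or more. In RNA of whole islets, a change in the share of a cell type and a change in RNA per cell cannot be told apart.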

How the data were processed

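RNA of islets from 6 samples, 3 per diet, was profiled by RNA sequencing; Trizol extraction and total RNA library preparation are given per the labels' protocols. The submitters' processing notes name GRCm38, StringTie 1.3.3, HISAT2 2.1.0 and Trimmomatic 0.36 without roles, and no source used here gives a strand setting.

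The deposited table holds, per the file headers, FPKM for each sample and the authors' mean and SD. It also holds the authors' p-value, the authors' log2 fold change, and the authors' score and effect size. The deposited log2 fold change, effect size, means and SDs of all rows were recomputed from the FPKM columns, and the largest difference was 3.6e-14. The log2 fold change is the ratio of mean FPKM without a pseudocount.

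Groups came from the diet label, and replicates were numbered in listing order. Identifiers were matched to symbols in the reference table. Diet values were described, not tested, because the rows are taken as picked on the diet contrast. Members and lists were chosen with earlier results of these data known. The genes named are the 3 members, rows in the lists, and rows from the 3 nearest in pattern to each member, of which 1 row is not reported here; the rows lowest in control replicate 1 were named after their values were seen. Motifs were searched on both strands. Transcripts were compared with BLAST 2.17.0; other steps used Python 3.11.15 and pandas 2.3.3. The ratio of means, the overlap of diets, the pattern difference and the motif search were tested on simulated data. The 2 scalings and the ratios within libraries were not. Alternatives were pseudocounts, medians, 2 scalings, a filter at 1 FPKM and leaving out each library.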

Additional observations from a re-analysis of the deposited data

How the results depend on the processing

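Of 65 recomputed values, 53 kept their direction and stayed within 1 SD of the replicates or, for the count of separated rows, within 1.5 times. The control coefficients of variation after division by the library median, 3 of the 65, were added after seeing the data, and all 3 moved by over 1.5 times. Divided by the library median, the log2 diet ratio moved to 0.11 for Hsph1 and 0.48 for Fkbp5, and turned to -0.092 for Dnajb4. Quantile normalization turned it to -0.072 for Hsph1 and -0.006 for Dnajb4. A pseudocount of 1 moved Dnajb4 to 0.28 and the difference in the Dnajb4 to Hsph1 ratio to -0.57, since it adds more to a low gene. Leaving out 1 library gave log2 diet ratios of 0.81 to 0.92 for Hsph1, 0.59 to 0.74 for Dnajb4 and 0.80 to 1.55 for Fkbp5. It gave differences of -0.33 to -0.08 for Dnajb4 to Hsph1, -0.053 to 0.75 for Fkbp5 to Hsph1, and 0.18 to 0.98 for Fkbp5 to Dnajb4. The negative value of Fkbp5 to Hsph1 came without control replicate 2; the cause was not tested. The count of rows whose diets do not overlap was 51, and 24 of the 26 with a mean of at least 1 FPKM, because fewer rows are counted. It was 39 after division by the library median, of which 21 had higher and 18 lower high-fat values, against 33 and 18 as deposited. It was 51 to 54 with 1 library left out. No paired analysis was possible because the samples share no replicate number in the labels. Depth is unknown for all 3 genes.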
